A study of Homo sapiens with 48 samples.

Results

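The comparison described here is light alone against probe alone in HEK293T cells, a human embryonic kidney line, 3 and 6 h after treatment. It rests on the 16 libraries that the sample labels place in these arms at these times, 4 per arm and time point, of 48 RNA-seq libraries in the whole series. The series has 4 arms, T-REX and its controls light alone, probe alone and DMSO, with 4 libraries each per time point (3, 6 and 12 h), and the design text calls them biological replicates. Cells of every arm, DMSO included, were transfected with a plasmid for NCBP1, the larger of the proteins of the nuclear cap-binding complex, fused to Halo, a tag that binds the probe covalently. The probe, Ht-PreHNE, is a caged precursor of the reactive aldehyde HNE, and light frees HNE beside the tagged protein in T-REX. Probe alone is the probe without light, and DMSO is the vehicle without light. The sources disagree on light alone. The name gives light and the labels give UV as the treatment, while the Methods list the probe together with light under this control. Read literally, the Methods wording is also the treatment of T-REX, of which light alone is a control. Whether the arms differ in light only, or in both light and probe, is therefore not known. The cells are otherwise given as wild type, counts of NCBP1 add those of the plasmid to those of the cells' own gene, and the share of cells that took up the plasmid is not given.

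Some of the genes that passed the test are known targets of 3 programmes, given here as background. That a target passed does not show that its programme changed, and of the aryl hydrocarbon receptor genes only TIPARP passed. Retinoic acid binds the receptors RARA, RARB and RARG, which pair with RXR on DNA, and RARB is itself a classic target of this signal, as are DHRS3, which turns retinal back into retinol, and HOX genes. The aryl hydrocarbon receptor (AhR) is activated by small planar ligands and by light-made derivatives of tryptophan, and raises TIPARP, a mono-ADP-ribosyltransferase that feeds back on the receptor, and CYP1 enzymes. SREBP2 is held in the endoplasmic reticulum by INSIG1 when cholesterol is ample, and otherwise turns on the enzymes of sterol synthesis.

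The promoters of RARB and TIPARP are shown because these genes were called in the mean of 3 and 6 h and again at 12 h, and because each has a known response motif. The sequences are from RefSeq (GRCh38.p14) and run from 250 bases before a transcription start to 50 bases from it. The window of RARB lies at chr3:25428013-25428312 on the plus strand and that of TIPARP at chr3:156674340-156674639 on the plus strand. Capitals in the first mark GTTCA repeated after 6 bases, a form of the direct repeat that retinoic acid receptors bind, and in the second CACGC, the reverse complement of GCGTG, the core that AhR binds.
RARB: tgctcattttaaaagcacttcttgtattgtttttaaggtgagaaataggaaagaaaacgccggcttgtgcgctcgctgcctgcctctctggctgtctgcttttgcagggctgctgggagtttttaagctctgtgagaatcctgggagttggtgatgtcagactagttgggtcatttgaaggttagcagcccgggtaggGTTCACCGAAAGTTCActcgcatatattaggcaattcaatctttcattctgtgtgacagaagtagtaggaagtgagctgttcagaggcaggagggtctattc
TIPARP: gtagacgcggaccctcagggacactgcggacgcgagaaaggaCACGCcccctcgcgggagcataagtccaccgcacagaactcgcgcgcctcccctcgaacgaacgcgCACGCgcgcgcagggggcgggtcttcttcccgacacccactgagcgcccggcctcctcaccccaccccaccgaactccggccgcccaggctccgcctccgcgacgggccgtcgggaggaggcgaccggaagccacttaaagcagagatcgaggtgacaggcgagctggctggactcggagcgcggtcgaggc
The match in RARB begins 52 bases before the start, and 1 of the 4 RARB starts in the table holds it. On both strands, 20 of 35116 starts (0.057%) held this repeat, whereas 36.5% held GCGTG, as did 1 of the 3 TIPARP starts, with 2 matches. The sterol regulatory element spelled TCACNCCAC stood in 1.13% of starts and in no window of HMGCS1, IDI1, DHCR7, INSIG1 or SCD, whereas 1 start of TIPARP, the window printed here, and 1 of MDGA2 held it. A match is only a run of letters, and the table held a start for 27 of 31 genes looked up.

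Total counts per library lay between 26979881 and 35169002 for the 16 libraries. NCBP1 took 3.19% to 8.72% of all counts, mitochondrial genes 7.49% to 9.24% and cytosolic ribosomal proteins 1.89% to 2.62%. Of 8 markers of HEK293T cells, 7 were measured, and of 12 markers of other cell types 1, COL1A1, with mean CPM (each gene's count scaled to a common library total) between 3 and 3.76 in the groups compared here; none of either list passed the test in any comparison below. Replicate libraries scattered most in light alone at 6 h, where the median over genes of the SD of log2 CPM was 0.13, against 0.086 to 0.087 in the other groups. In RNA from whole cultures, fewer cells that express a gene and less RNA of it per cell cannot be told apart.

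Of the 14685 genes tested, 34 (0.232%) at 3 h passed edgeR's quasi-likelihood test at an adjusted p of at most 0.05, 9 higher (0.0613%) and 25 lower (0.17%) with light alone. At 6 h, 9 genes (0.0613%) passed, 4 higher (0.0272%) and 5 lower (0.034%). The mean effect over both times, from 1 fit of 32 libraries with time as a factor, was called for 41 genes (0.279%), 13 higher (0.0885%) and 28 lower (0.191%). All 41 had the same sign at 3 and at 6 h, as had 7039 of all 14685 genes. The 41 were chosen by the mean of both times, which favours a shared sign, so this count is no separate support. Of the 41, 14 were also called at 3 h, 5 at 6 h and 23 at neither time. The median size of the log2 difference among the 41 was 0.31, so most changes were small, and RARB was the only gene called at both times. An unadjusted p of at most 0.05 was reached by 2060 genes at 3 h, 1236 at 6 h and 1596 in the mean, so a gene that missed the threshold is not shown to be equal in the arms. With the 2 deposited factors of unwanted variation as covariates, 2176 genes were called at 3 h, and the majority turned from lower to higher (1285 higher, 891 lower). In that fit 450 were called at 6 h (183 higher, 267 lower) and 1025 in the mean (456 higher, 569 lower). Leaving out single libraries moved these counts to between 1 (probe alone replicate 1 left out) and 197 (T-REX replicate 3 left out) at 3 h, 1 (without probe alone replicate 4) and 23 (without light alone replicate 4 or probe alone replicate 2) at 6 h, and 23 (without probe alone 3 h replicate 1) and 101 (without light alone 6 h replicate 2) for the mean. Of the 41, 20 stayed called in each of the 32 fits that left out 1 library. At a single time only RARB stayed called in all 16 such fits. All 4 light alone libraries lay below all 4 probe alone libraries for 720 genes at 3 h (4.9%) and 292 at 6 h (1.99%), and for 14 genes at both times (0.0953%), among them RARB, DHRS3, IDI1, ELOVL5, CREB3L2 and PDE4D. They lay above at both times for 13 genes (0.0885%), among them INHBA. With no link between the times, shares of 4.9% and 1.99% would give about as many genes below at both. The 14 genes are therefore no separate support. The plot of the 3 h against the 6 h differences shows the 41 genes.

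**Figure D1:**
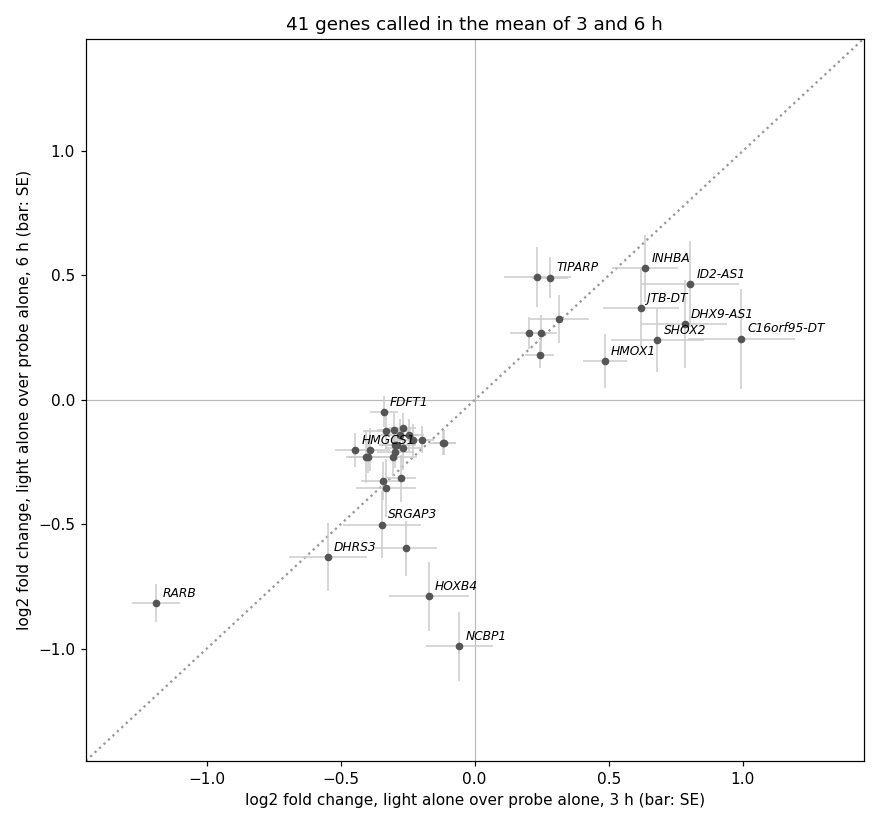
Log2 difference of light alone minus probe alone at 3 h (x axis) and at 6 h (y axis) for the 41 genes called in the mean of both times, with bars for 1 SE and a dotted line where both are equal. The 41 genes were chosen by the mean of both times, and all points lie in the lower left or the upper right field. RARB, at -1.19 and -0.82, lies farthest from 0 in the lower left.

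RARB, a retinoic acid receptor and target, was lower with light alone at both times. At 3 h the light alone libraries held 17.6, 16.5, 14.3 and 15.5 CPM in replicates 1 to 4, and the probe alone libraries 37.5, 41.9, 33.4 and 33.1 CPM. At 6 h the values were 29.2, 33.4, 32 and 26.4 CPM with light alone and 57, 52.7, 51.9 and 51.4 CPM with probe alone. The highest light alone value was far under the lowest probe alone value at each time. Levels were 2.28-fold lower at 3 h (log2 difference -1.19 ± 0.0888, SE; adjusted p = 1.1e-07) and 1.76-fold lower at 6 h (-0.82 ± 0.0776; adjusted p = 2.46e-06), and the change in the difference between the times did not pass the test (adjusted p = 0.182). DMSO libraries held 26.4, 25.1, 23.9 and 24.7 CPM at 3 h, between the arms, and 35.7, 38.7, 33.9 and 32.3 CPM at 6 h, where their lowest value fell into the range of light alone. Relative to DMSO, probe alone stood at 0.54 on the log2 scale at 3 h and 0.60 at 6 h, and light alone at -0.64 and -0.22. Of these differences, light alone at 6 h did not pass (adjusted p = 0.222) and the others did. The T-REX libraries, from cells given both probe and light, held 19.8, 20.5, 17.3 and 17.5 CPM at 3 h and 24.7, 24.9, 22.3 and 23.7 CPM at 6 h. All lay under the lowest DMSO library of their time, and the parts of light and probe in this were not tested. RARB stayed called in the mean and at either time in every fit that left out a library.

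DHRS3, the retinal reductase induced by retinoic acid, was lower in the mean of both times (log2 difference -0.60 ± 0.0988, SE; adjusted p = 0.00157). Its 3 h values were 5.17, 6.15, 6.09 and 4.07 CPM with light alone and 8.5, 7.49, 7.78 and 7.66 CPM with probe alone, and its 6 h values 7.02, 6.85, 5.67 and 8.01 CPM and 11.6, 9.97, 10.3 and 10.8 CPM. Light alone libraries were all below probe alone libraries at each time, although neither time passed alone (adjusted p = 0.114 and 0.0804). HOXB4, a homeobox gene of the retinoic acid responsive HOXB cluster, was lower at 6 h, with 5.78, 5.83, 5.15 and 5.15 CPM with light alone and 10.1, 10.1, 7.34 and 10.4 CPM with probe alone (-0.79 ± 0.138; adjusted p = 0.02). Without 1 of 4 libraries, light alone replicates 2 and 3 or probe alone replicates 1 and 4, this 6 h call was lost (adjusted p up to 0.157). Nor was HOXB4 called at 6 h with only the 2 arms. At 3 h the groups overlapped (-0.17; adjusted p = 0.633), and the mean effect of -0.49 passed (adjusted p = 0.0156), except without probe alone 3 h replicate 4 (0.0511). These are low levels of a few CPM. The retinoid list held 22 measured genes, of which 3, RARB, DHRS3 and HOXB4, fell and none rose in the mean, where 0.191% of all genes fell. In all, 16 of 22 had a negative difference, as had 6962 of all 14685 genes, and the median was -0.11, against 0.01 over all genes. The receptors RARA and RARG had differences of 0.12 and 0.08 in the mean, RXRA 0.12, and the retinoic acid hydroxylase CYP26B1 -0.15.

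**Figure D2:**
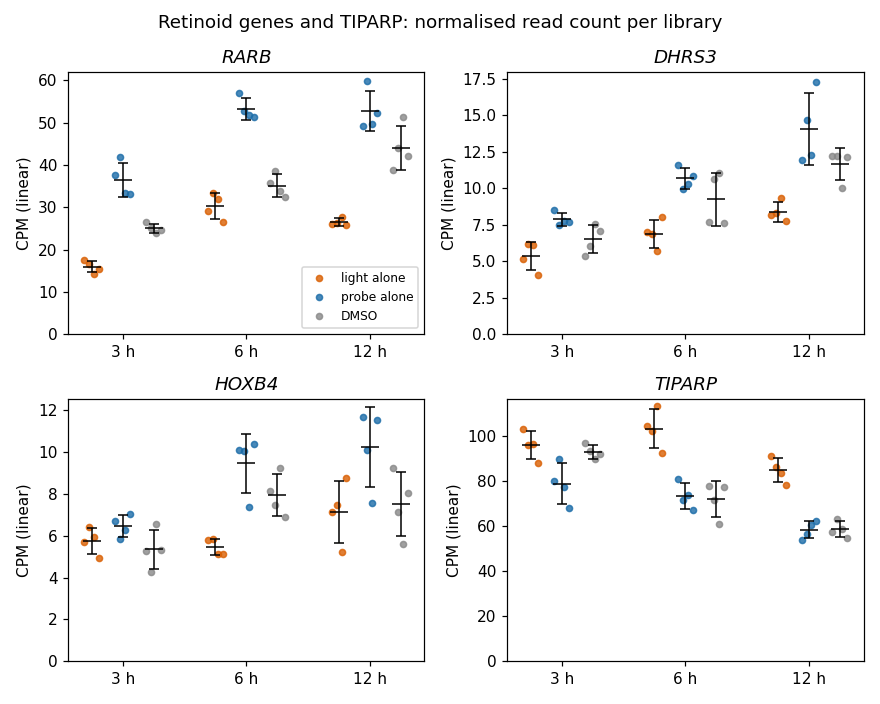
CPM of RARB, DHRS3, HOXB4 and TIPARP in each library of the 3 control arms (light alone, probe alone, DMSO) by time (3, 6 and 12 h); points are libraries, and the black marks and bars are the mean and SD (n = 4). RARB and DHRS3 show no light alone library above a probe alone library of its time, and TIPARP in light alone is above probe alone at 6 and 12 h.

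TIPARP, the AhR target, was higher with light alone, and the groups separated at 6 h. Its values at 3 h were 103, 96, 96.6 and 87.9 CPM with light alone and 80.1, 89.9, 77.3 and 68.1 CPM with probe alone, where the lowest light alone library was below the highest probe alone library. At 6 h they were 105, 102, 113 and 92.5 CPM with light alone and 81.1, 71.5, 73.8 and 67.2 CPM with probe alone, with no overlap. The difference was 0.28 ± 0.0667 at 3 h (adjusted p = 0.0789), 0.49 ± 0.0816 at 6 h (adjusted p = 0.0143) and 0.38 ± 0.0553 in the mean (adjusted p = 0.000267). The 6 h call was lost without light alone replicate 2 or 3 or probe alone replicate 3 or 4 (adjusted p up to 0.148), and the call in the mean held in all 32 fits that left out a library. Relative to DMSO, light alone stood at 0.04 at 3 h and 0.52 at 6 h, and probe alone at -0.24 and 0.03. Of these differences only light alone at 6 h passed (adjusted p = 0.0261). T-REX libraries held 64.3, 67.8, 74.7 and 59.8 CPM at 6 h, within or below the range of probe alone. TIPARP was the only one of 11 measured AhR genes that passed in the mean, and the list median was 0.03. CYP1B1, the CYP1 enzyme measured, had 0.26 ± 0.0897 (adjusted p = 0.236), AHRR, the receptor's repressor, 0.12 and AHR itself 0.14.

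Sterol genes gave more calls in the mean than any other list, and all of them were lower with light alone. Of 25 measured genes of sterol synthesis and SREBP2 targets, 8 fell and none rose in the mean, where 0.191% of all genes fell. In all, 23 of the 25 had a negative difference, as had 6962 of all 14685 genes. The list median was -0.28 at 3 h, -0.12 at 6 h and -0.19 in the mean, whereas the median over all genes was 0.0144, 0.00497 and 0.00611. At 3 h 7 members were called lower (13 called with DESeq2 and 12 with only the 2 arms), and at 6 h none. For the mean, 7 to 11 members were called when single libraries were left out. At 3 h this count was 0 without light alone replicate 3 or probe alone replicate 1, 1 without light alone replicate 1 or 2 or probe alone replicate 3, 4 without probe alone replicate 2, T-REX replicate 2 or DMSO replicate 1 or 4, and 13 without T-REX replicate 3.

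HMGCS1, which makes HMG-CoA for the pathway, had 131, 132, 125 and 148 CPM with light alone at 3 h and 203, 179, 188 and 160 CPM with probe alone. The groups did not overlap, and the difference was -0.45 ± 0.0749 (adjusted p = 0.015). At 6 h the values overlapped, with 109, 130, 127 and 113 CPM and 144, 148, 134 and 125 CPM (-0.20 ± 0.0689; adjusted p = 0.383). The mean effect was -0.33 ± 0.0545 (adjusted p = 0.00157). IDI1, the isopentenyl diphosphate isomerase, had no overlap at either time, with 183, 180, 168 and 175 CPM against 246, 263, 227 and 196 CPM at 3 h and 146, 154, 165 and 140 CPM against 180, 184, 179 and 166 CPM at 6 h. Its mean effect was -0.32 ± 0.0535 (adjusted p = 0.00167). SQLE, the squalene epoxidase, held 121, 153, 141 and 128 CPM with light alone at 3 h, all below the 174, 169, 163 and 157 CPM of probe alone. At 6 h the groups overlapped, with 131, 153, 138 and 125 CPM against 152, 166, 150 and 154 CPM, and the mean effect was -0.24 ± 0.0462 (adjusted p = 0.00823). INSIG1 (the SREBP anchor, -0.26) and DHCR7 (the last step to cholesterol, -0.30) also fell in the mean, with adjusted p of 0.0103 and 0.0109. The mean effects of these 5 genes passed in every fit that left out 1 library. SREBF2, the gene of SREBP2, did not pass (-0.10 in the mean, adjusted p = 0.596).

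**Figure D3:**
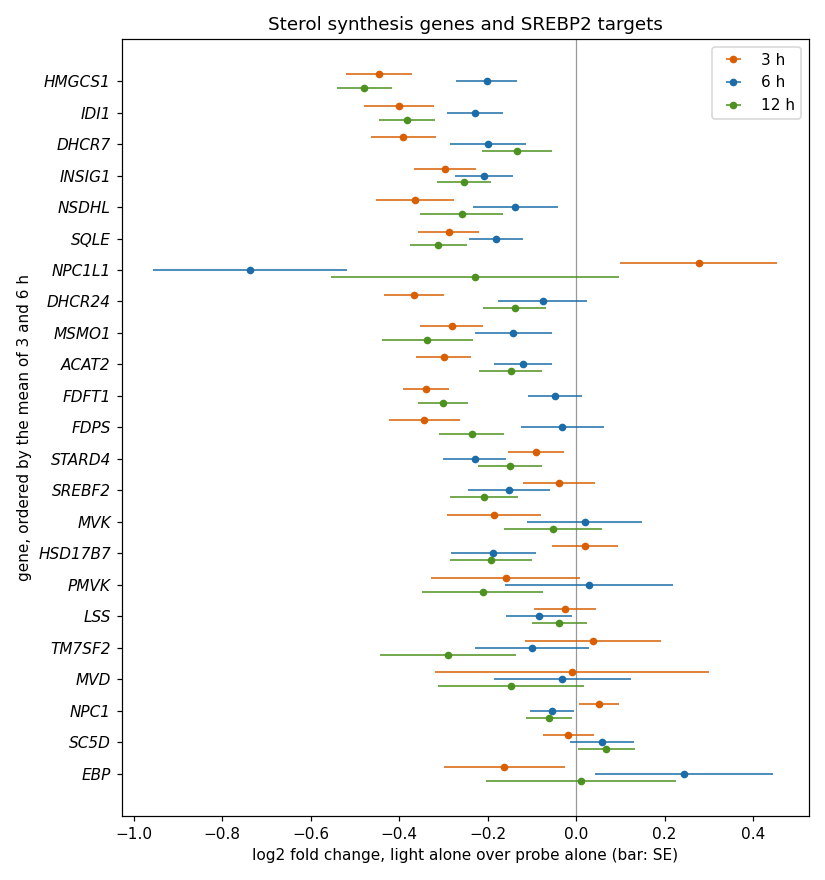
Log2 difference of light alone minus probe alone (x axis) for 23 genes of sterol synthesis and SREBP2 targets, ordered by the mean of 3 and 6 h, with a point per time (3 h orange, 6 h blue, 12 h green) and bars for 1 SE. Most points lie left of 0, with 19 of 23 genes negative at 3 h, 19 at 6 h and 21 at 12 h, and HMGCS1 has the most negative mean effect among them, -0.33.

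Relative to DMSO, HMGCS1 lay lower with light alone and higher with probe alone at 3 h, and higher in both at 6 h. Light alone stood at -0.21 and 0.07 and probe alone at 0.24 and 0.27 at 3 and 6 h, none of which passed the test (adjusted p at least 0.31). IDI1 stood at -0.13 and 0.12 with light alone and 0.27 and 0.35 with probe alone, of which only probe alone at 6 h passed (adjusted p = 0.0482). At 6 h light alone thus lay near DMSO for both genes. Over the whole list the medians relative to DMSO were -0.05 and 0.03 for light alone and 0.17 and 0.12 for probe alone, at 3 and 6 h. These comparisons share the DMSO libraries with each other and their arms with the main comparison, so the values are set side by side and test nothing further.

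Of 15 genes of fatty acid synthesis and SREBP1 targets, 2 fell in the mean, where 0.191% of all genes fell. SCD, which makes monounsaturated fatty acids, had 372, 394, 379 and 392 CPM with light alone and 508, 451, 451 and 439 CPM with probe alone at 3 h, without overlap, and -0.20 in the mean (adjusted p = 0.0126). Without probe alone 3 h replicate 1 or light alone 6 h replicate 1, SCD was no longer called (adjusted p up to 0.0583). Nor was SCD called in the mean with only the 2 arms (adjusted p = 0.0835). ELOVL5, an elongase of polyunsaturated fatty acids, was lower in all light alone libraries at both times, with 186, 185, 179 and 192 CPM against 216, 218, 213 and 205 CPM at 3 h and -0.19 in the mean (adjusted p = 0.0126). ELOVL6, an elongase of saturated fatty acids, was called at 3 h only (-0.38, adjusted p = 0.0436; 6 h -0.04). FASN, the fatty acid synthase, did not pass at 3 h (0.81, adjusted p = 0.495), and the list median in the mean was -0.08.

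NCBP1, the fusion partner expressed from the plasmid, differed at 6 h and not at 3 h. At 3 h it had 69680, 58600, 59990 and 55030 CPM with light alone and 61780, 65340, 67890 and 58200 CPM with probe alone, and the ranges overlapped. At 6 h light alone held 43350, 31200, 38500 and 52190 CPM and probe alone 87190, 64230, 87480 and 89350 CPM, without overlap. The difference was -0.06 ± 0.124 at 3 h (adjusted p = 0.871) and -0.99 ± 0.137 at 6 h (adjusted p = 0.0143), and the change between the times had an adjusted p of 0.0734. The 6 h call was lost without light alone replicate 3 or probe alone replicate 3 or 4 (adjusted p up to 0.102). As a share of the library, NCBP1 was 3.19% to 5.34% of counts with light alone and 6.37% to 8.72% with probe alone at 6 h. With NCBP1 left out of the library sizes, 9 genes were called at 6 h, all of those called before, and 44 at 3 h. No other of the 14 listed genes of the cap-binding complex and its partners passed, and the list median was -0.02 in the mean. Whether the amount of fusion moved the other genes was not tested.

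**Figure D4:**
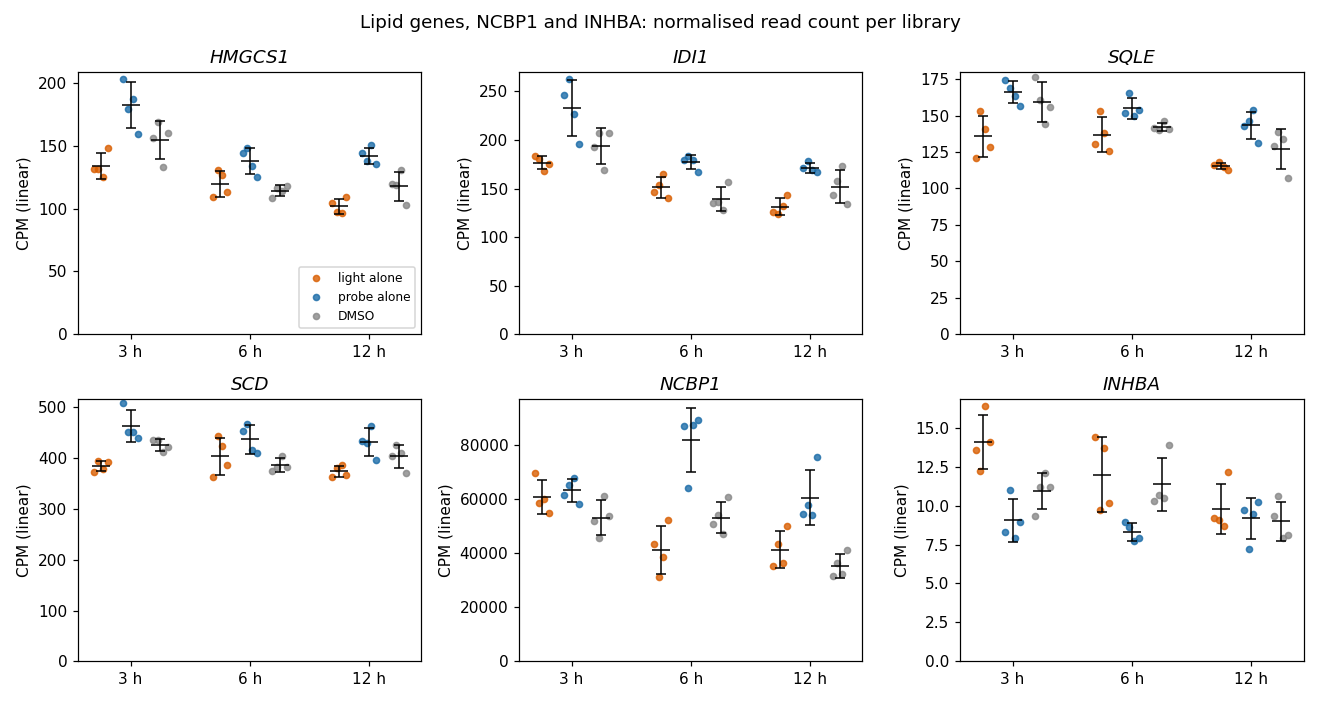
CPM of HMGCS1, IDI1, SQLE, SCD, NCBP1 and INHBA in each library of the 3 control arms (light alone, probe alone, DMSO) by time (3, 6 and 12 h); points are libraries, and the black marks and bars are the mean and SD (n = 4). The HMGCS1 groups of light alone and probe alone separate at 3 and 12 h and overlap at 6 h, whereas those of NCBP1 overlap at 3 h and separate at 6 h.

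Other genes that passed in the mean were spread over functions. INHBA, the subunit of activin A, was higher with light alone, with 13.6, 12.2, 16.4 and 14.1 CPM against 8.3, 11, 7.93 and 8.96 CPM at 3 h and 14.4, 9.7, 13.7 and 10.2 CPM against 8.94, 8.6, 7.73 and 7.92 CPM at 6 h. No light alone library fell into the range of probe alone at either time, and the mean effect was 0.58 ± 0.0924 (adjusted p = 0.00128). CREB3L2, an endoplasmic reticulum bound transcription factor, was lower (mean effect -0.25 ± 0.0352; adjusted p = 0.000267), with 168, 164, 164 and 185 CPM against 222, 194, 211 and 208 CPM at 3 h and 140, 153, 131 and 148 CPM against 168, 161, 155 and 164 CPM at 6 h. PDE4D, a phosphodiesterase that degrades cyclic AMP, was lower in the mean (-0.34 ± 0.0552; adjusted p = 0.00128), with differences of -0.34 at 3 h and -0.33 at 6 h. Light alone was below probe alone in every library for both genes. STRIP2, a partner of the STRIPAK phosphatase complex, and FMNL3, a formin of the actin cytoskeleton, were higher by 0.25 and 0.23 (adjusted p = 0.00426 and 0.00823). FMNL3 was not called with only the 2 arms (adjusted p = 0.0545).

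PDK1, the kinase that shuts pyruvate dehydrogenase, was lower in the mean (-0.32, adjusted p = 0.0143) and was the only one of 28 hypoxia response genes called, with the list median at -0.12. Of the 28, 25 had a negative difference in the mean, as had 6962 of all 14685 genes. At 12 h 9 of the 28 were negative, against 7477 of all genes. With only the 2 arms PDK1 was not called in the mean (adjusted p = 0.155). At 3 h its libraries held 81.5, 90.5, 91 and 96.8 CPM with light alone and 125, 123, 117 and 112 CPM with probe alone, without overlap, whereas at 6 h they overlapped. HMOX1, the haem oxygenase that NRF2 and other stress factors induce, was higher at 3 h, with 26.3, 29.4, 32.7 and 31.3 CPM against 21.7, 20.8, 20.8 and 22.3 CPM (0.48 ± 0.0825; adjusted p = 0.0144). This 3 h call was lost without light alone replicate 2 or 3 or probe alone replicate 1 or 3 (adjusted p up to 0.103), and at 6 h the difference was 0.16 (adjusted p = 0.745). In the mean HMOX1 had 0.31 (adjusted p = 0.0299), called in 23 of the 32 fits that left out 1 library (adjusted p up to 0.105). It was the only one of 22 NRF2 targets called, and the list median was 0.02. NQO1, another NRF2 target, had -0.15, and GCLM and SLC7A11 0.06 and 0.05, none of which passed. Among the larger positive mean effects were long noncoding RNAs named for a neighbouring gene, namely ID2-AS1 with 0.63 (adjusted p = 0.0172), C16orf95-DT with 0.61 (0.0348) and DHX9-AS1 with 0.54 (0.0245). Levels of ID2-AS1 at 3 h were 7.07, 5.32, 7.85 and 6.64 CPM with light alone and 3.66, 5.04, 3.83 and 2.85 CPM with probe alone. How strand was used in the counting is not given, so reads of overlapping genes on the 2 strands may be shared. ID2-AS1 lost its call without light alone 3 h replicate 3, probe alone 3 h replicate 1 or 4 or probe alone 6 h replicate 1 (adjusted p up to 0.068), and C16orf95-DT and DHX9-AS1 stayed called in 19 and 26 of the 32 fits that left out 1 library. With only the 2 arms, HMOX1, ID2-AS1, C16orf95-DT and DHX9-AS1 were not called in the mean.

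Several genes were called at 3 h and not at 6 h. Of the 34 genes called at 3 h, 23 had the same sign at 6 h. PLXDC2, a transmembrane protein, was lower at 3 h (-0.55 ± 0.0933; adjusted p = 0.0144), and at 6 h it stood at 0.07. MAP2K6, the kinase upstream of p38, was likewise lower at 3 h (-0.41, adjusted p = 0.0184; 6 h 0.11), as were the endocytic receptor LRP2 (-0.46, 0.0391; 6 h -0.08) and the adhesion protein MDGA2 (-0.72, 0.0395; 6 h -0.14). On the stress side, PPP1R15A, the phosphatase subunit that reverses the integrated stress response, was higher at 3 h (0.39 ± 0.0724; adjusted p = 0.0267), and ATF3, a stress transcription factor, likewise (0.39 ± 0.0795; 0.0436). Their 6 h differences were -0.23 and -0.12. DDIT4 and CHAC1, other genes of that response, did not pass at 3 h (-0.48 and 0.45). PPP1R15A and ATF3 were the only calls among 33 integrated stress response genes at 3 h (median 0.00), where 0.0613% of all genes were called higher. ATF3 was the only call among 26 immediate early genes (median 0.20). Of these 26, 3 had a negative difference at 3 h, against 6700 of all 14685 genes. The chaperones HSPD1 (-0.24, adjusted p = 0.0436) and HSPA8 (-0.29, 0.0436) were called lower at 3 h, as were 0.17% of all genes. They were the 2 calls among 19 heat shock genes (median -0.13). This count was 5 with DESeq2 and with only the 2 arms, 6 without T-REX replicate 3, 2 without DMSO replicate 3 or T-REX replicate 1 or 4, 1 without probe alone replicate 2 and 0 without any other single library. Each of these 3 h calls was lost without at least 1 library of its fit.

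At 6 h, 3 further genes with a symbol were called. APAF1, the scaffold of the apoptosome, was lower, with 122, 111, 117 and 125 CPM against 156, 141, 163 and 149 CPM (-0.36 ± 0.0602; adjusted p = 0.0143). IRS4, an insulin receptor substrate abundant in HEK293 cells, was higher, with 545, 521, 598 and 474 CPM against 398, 455, 440 and 420 CPM (0.32 ± 0.058; adjusted p = 0.0258). ID2, an inhibitor of bHLH factors downstream of BMP signals, was also higher, with 97.3, 95.6, 77.4 and 84.3 CPM against 71, 70.4, 66.6 and 71.2 CPM (0.35 ± 0.0665; adjusted p = 0.0436). The groups did not overlap for any of the 3. The ID2 call was lost without any of 13 of the 16 libraries (adjusted p up to 0.211), the APAF1 call without any of 4 (up to 0.0926) and the IRS4 call without any of 6 (up to 0.187). With only the 2 arms none of the 3 was called at 6 h (adjusted p = 0.0984 for APAF1 and 0.353 for IRS4), and limma did not call ID2. At 3 h the differences were 0.04, 0.01 and 0.05. ID2 was the only call at 6 h among 19 genes of TGF-beta, BMP and ID signalling (median 0.01).

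No gene passed edgeR's test of the difference between the times (0.0% of 14685), although 1881 had an unadjusted p of at most 0.05. DESeq2 called 42, and edgeR with the 2 deposited factors 1590 (721 higher, 869 lower). The smallest adjusted p was 0.0728, shared among others by APAF1 (-0.38, 6 h minus 3 h), PLXDC2 (0.63) and MAP2K6 (0.53). Whether an effect called at 1 time differed from that at the other time thus depended on the fit. The p53 targets lay on opposite sides at the 2 times. Of 30, 28 had a positive difference at 3 h (median 0.16) and all 30 a negative one at 6 h (median -0.21). Over all 14685 genes, 6700 were negative at 3 h and 7088 at 6 h. EdgeR called no p53 target at either time or in the mean. DESeq2 called 2 members at 6 h, and edgeR called 2 at 6 h without probe alone replicate 2, 1 at 6 h and 1 in the mean without light alone 6 h replicate 4, and 1 at 3 h without light alone replicate 4. TP53I3, an oxidoreductase induced by p53, had the most negative 6 h difference of the list (-0.72, adjusted p = 0.0804) and 0.09 at 3 h. Cytosolic ribosomal protein genes leaned to lower values at 3 h, where 67 of 77 were negative, the median was -0.23 and in 40 all 4 light alone libraries lay below all 4 probe alone libraries, as they did for 4.9% of all genes. At 6 h the median was -0.02, and no member was called at either time, whereas at 3 h DESeq2 called 18, the fit of only the 2 arms 23, and fits without T-REX replicate 1, 3 or 4 or probe alone replicate 4 called 1, 28, 3 and 2. Their share of counts at 3 h was 2.06% to 2.2% with light alone and 2.26% to 2.51% with probe alone.

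The remaining lists held few or no calls in the mean. Among 27 unfolded protein response genes CREB3L2 alone was called (median -0.08). It was also the only call of this list at 3 h, where DESeq2 and the fit of only the 2 arms each called 7 members. Fits without 1 library called 0 to 7 at 3 h and 1 to 4 in the mean. No gene was called in the mean, at 3 h or at 6 h among 7 LXR targets (median of the mean effect 0.01), 5 MondoA targets (0.00), 18 circadian clock genes (0.07), 8 interferon response genes (0.00) and 4 genes of the metal response (0.02). The same held for 15 mitochondrial transcripts (-0.07), 32 replication-dependent histones (-0.06), 9 small structured RNAs (-0.24), 29 mitosis genes (-0.06) and 27 genes of DNA replication (-0.02). It also held for 18 glycolysis genes (-0.13), 10 Wnt feedback genes (0.05) and 12 Notch and Hippo targets (0.15). Among these lists without a call, DESeq2, the fit of only the 2 arms and some of the fits without 1 library called up to 4 members of a list. All 29 mitosis genes had a negative difference at 3 h, with a median of -0.11, as had 6700 of all 14685 genes.

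The 8 light alone and probe alone libraries of 12 h took no part in these calls. In the 12 h fit 61 genes were called (0.415%), 29 higher (0.197%) and 32 lower (0.218%). Of the 41 genes called in the mean of 3 and 6 h, 37 had the same sign at 12 h, 26 of them with an unadjusted p of at most 0.05, against 9280 of all 14685 genes with the same sign. At 12 h, 9 of the 41 were called in the same direction and 0 in the opposite direction. They were RARB, DHRS3, TIPARP, HMGCS1, IDI1, SQLE, ID2-AS1, FDFT1 and a gene without a symbol, ENSG00000257178. RARB held 26.1, 26.2, 27.8 and 25.9 CPM with light alone and 49.3, 59.8, 49.8 and 52.3 CPM with probe alone, again without overlap (-0.99 ± 0.0848; adjusted p = 1.67e-07). TIPARP held 91, 86.2, 83.5 and 78.4 CPM and 54, 56.6, 60.6 and 62.2 CPM (0.54 ± 0.0642; adjusted p = 6.82e-05), and HMGCS1 104, 97.2, 96.8 and 109 CPM and 144, 138, 150 and 136 CPM (-0.48 ± 0.0627; adjusted p = 0.000195). DHRS3 was lower as well (-0.74; adjusted p = 0.00488). In these 3 genes too no library of light alone lay within the range of probe alone. Of the sterol list, 4 genes were called lower at 12 h (HMGCS1, IDI1, SQLE and the squalene synthase FDFT1) and the median was -0.21. Among genes called in the mean of 3 and 6 h that did not pass at 12 h were INHBA (0.09, adjusted p = 0.844), PDK1 (0.08, 0.8) and HMOX1 (0.07, 0.885), and the difference of 12 h from the earlier times was not tested. NCBP1 had -0.55 at 12 h and did not pass (adjusted p = 0.0699). FDFT1 and ENSG00000257178 were named after their values were seen.

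**Figure D5:**
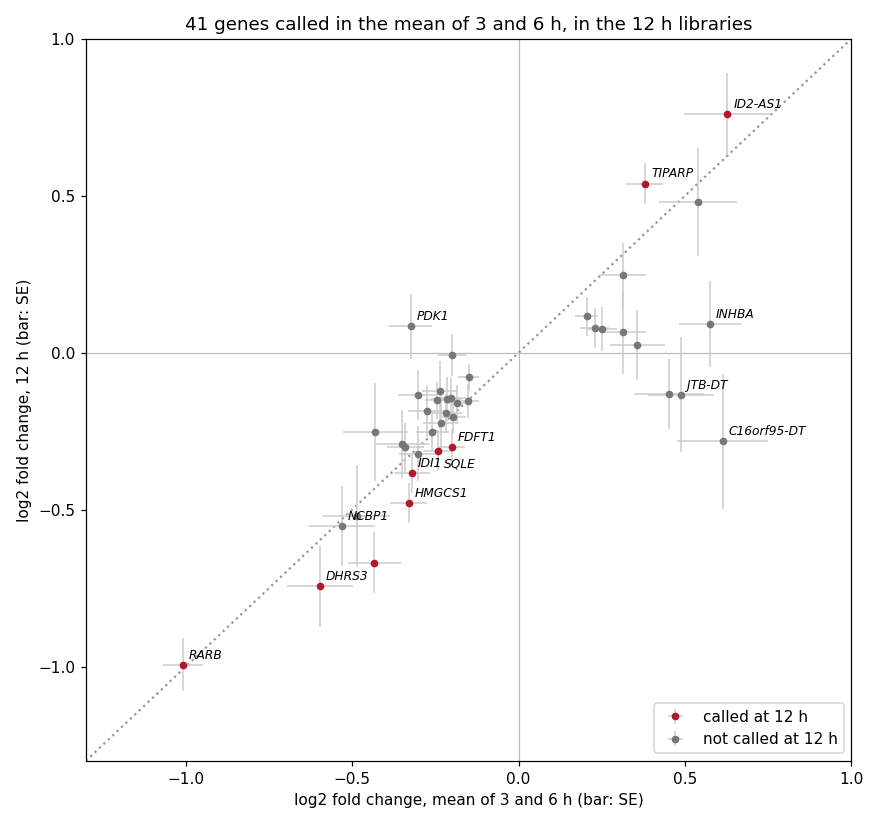
Log2 difference of light alone minus probe alone at 12 h (y axis) against the mean of 3 and 6 h (x axis) for the 41 genes called in that mean, with bars for 1 SE, a dotted line where both are equal, and red points for the 9 called at 12 h (grey, not called). Of the 41 points, 37 have the same sign on both axes.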

How the data were processed

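RNA-seq of 48 HEK293T cultures was analysed, of which 16 libraries (light alone and probe alone, 3 and 6 h) are compared and 8 of 12 h are set beside them. For each time the authors deposited a table of raw gene counts, and all tests use it. They also deposited log2 CPM, used in one alternative, and 2 factors of unwanted variation per library, a score whose method is not given in the sources used here. The libraries were made with stranded mRNA reagents per the labels, whereas the Methods name ribosomal RNA depletion. The submitters' processing notes name bcl2fastq, and the Reporting Summary lists cutadapt, the aligner TopHat and Cufflinks for the RNA-seq. The counter, genome build and strand setting of the deposited counts are not given in the sources used here. Gene positions are therefore not given, and promoters come from RefSeq by symbol.

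The 16 libraries of all 4 arms at a time point were fitted together with edgeR 4.0.16 under R 4.3.3 (TMM scaling, its default filter on low counts, robust quasi-likelihood F-test), and the 32 libraries of 3 and 6 h with arm and time as groups for the mean effect and the difference between the times. Differences are log2 fold changes of light alone minus probe alone. Adjusted p-values are those of Benjamini and Hochberg over all 14685 genes, and a gene counted as called where this value did not exceed 0.05. CPM is the count divided by the library's total times its TMM factor, scaled to the same total in every library. The scripts were tested on simulated data. Summed over all genes, counting noise was smaller than the scatter between replicates (chi-square per degree of freedom 3.15 to 42.9 over 24 pairs). Genes with many counts weigh most in this sum. Alternatives were DESeq2 1.42.0, RLE size factors, no filter on low counts, NCBP1 left out of the library sizes, the replicate number as a block, the 2 deposited factors as covariates, only the 2 arms compared, limma 3.58.1 on the deposited log2 CPM, and leaving out each library in turn. The alternatives for 12 h were chosen after seeing the data. Tables and figures were made in Python 3.11.15.

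Named genes are NCBP1, RARB and TIPARP, up to 12 genes per direction with the largest mean effect among those called, up to 8 per direction called at 3 h or 6 h, those called at both times, the 5 with the smallest p for the difference between times, and up to 6 called members of each of 29 gene lists, or 2 where none was called. Genes without a symbol are counted, not every gene picked is named, and some results are not reported here. The list members RARA, RARG, RXRA, CYP26B1, CYP1B1, AHRR, AHR, SREBF2, FASN, ELOVL6, FDFT1, NQO1, GCLM, SLC7A11 and CHAC1 were picked with their values in view. The comparison, members and lists were chosen with earlier results of these data known.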

Additional observations from a re-analysis of the deposited data

Results flagged for a closer look

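In 204 groups of 4 libraries (31 genes and library measures, by arm and time), 6 had a library farther from the other 3 than Dixon's 95% critical value allows, where chance alone would give about 10.2 at 1 in 20. NCBP1 in probe alone at 6 h had 64230 CPM in replicate 2, against 87190 to 89350 CPM in the others, and at 12 h 75760 CPM in replicate 4, against 54210 to 57870 CPM. HOXB4 in probe alone at 6 h had 7.345 CPM in replicate 3, against 10.06 to 10.36 CPM. STRIP2 in probe alone at 6 h had 41.71 CPM in replicate 3, against 36.72 to 36.82 CPM. At 12 h, APAF1 in probe alone had 208.5 CPM in replicate 4, against 184.9 to 187.5 CPM, and INHBA in light alone 12.17 CPM in replicate 4, against 8.66 to 9.222 CPM.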

How the results depend on the processing

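The directions of the called genes were the same under every alternative, and RLE size factors, no filter on low counts, NCBP1 left out of the library sizes and limma kept all counts within 1.5 times. The counts themselves moved widely. At 3 h, 34 genes became 203 with DESeq2, 2176 with the 2 deposited factors and 156 with only the 2 arms. At 6 h, 9 became 59, 450 and 3. For the mean, 41 became 83, 1025 and 20. For the difference between the times, 0 became 42 with DESeq2 and 1590 with the factors. The 12 h calls among the 41 genes, 9, became 14 with DESeq2, 19 with the factors and 18 with only the 2 arms. The cause was not tested, and how the factors were made is not known. Of the 41 genes, 16 stayed called under all 8 alternatives and in all 32 fits without 1 library; at 3 h and at 6 h this was 1 gene, RARB.

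The labels do not tie replicate numbers to a shared culture or day, and at no time did all same-numbered libraries of the 2 arms deviate together. The deviations correlated with r from -0.17 to 0.142 at 3 h and -0.109 to 0.112 at 12 h. At 6 h r was 0.408, 0.279 and 0.307 for replicates 2, 3 and 4, each of which correlated best with its own number, and -0.057 for replicate 1, which did not. With the replicate number as a block, 33 genes were called at 3 h, 25 at 6 h, 48 in the mean, 28 for the difference between the times and 11 of the 41 at 12 h.

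Without 1 library the counts ran from 1 to 197 at 3 h, 1 to 23 at 6 h, 23 to 101 in the mean, 0 to 84 for the difference and 7 to 15 at 12 h. At 3 h the count was 1 without probe alone replicate 1, 3 without light alone replicate 3 or probe alone replicate 3, 4 without light alone replicate 2, 9 without light alone replicate 1, 14 without DMSO replicate 4, 16 without DMSO replicate 1, 20 without T-REX replicate 2, 55 without T-REX replicate 1, 197 without T-REX replicate 3 and 21 without probe alone replicate 2. At 6 h it was 1 without probe alone replicate 4, 2 without light alone replicate 2 or probe alone replicate 3, 3 without light alone replicate 3 or probe alone replicate 1, and 23 without light alone replicate 4 or probe alone replicate 2. In the mean it was 23 without probe alone 3 h replicate 1, 25 without light alone 3 h replicate 3, 26 without probe alone 6 h replicate 1 and 101 without light alone 6 h replicate 2. The difference gave 27 without light alone 3 h replicate 4, 9 without probe alone 3 h replicate 4, 8 without light alone 6 h replicate 1, 84 without light alone 6 h replicate 4 and 11 without probe alone 6 h replicate 2. At 12 h the count was 15 without DMSO replicate 3. The median depth was 29610403.5 counts. Over all genes together the scatter between replicates exceeded counting noise, and their parts in the error of single genes were not tested.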
